A study of Mus musculus with 8 samples.

Results

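Transcripts of the MCM genes were measured in NIH3T3 cells sorted as G1 and as G0. The members are the 8 genes Mcm2, Mcm3, Mcm4, Mcm5, Mcm6, Mcm7, Mcm8 and Mcm10. They were taken as every probe set whose only platform gene symbol was one of these, which gave 23 probe sets of 45037 tested, for 8 genes of 18193. NIH3T3 is an established mouse embryonic fibroblast line, here transduced with mVenus-p27K-, a fluorescent fusion of a mutant p27, and mCherry-hCdt1(30/120), a fluorescent fragment of human Cdt1. All groups had been cultured without serum and then for 5 h in medium with 10% serum. G1 cells were sorted as mVenus-negative and mCherry-positive, and G0 cells as mVenus-positive and mCherry-positive. Total RNA was hybridised to 4 Affymetrix arrays a group. The sort tells the groups apart by reporter protein, so each group is what its gate held. The comparison asks how transcripts differ between cells in G1 and cells still in G0 of the same culture regime.

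The Mcm2 to Mcm7 proteins form a ring-shaped hexamer that is the core of the replicative DNA helicase. In G1 the origin recognition complex, Cdc6 and Cdt1 load it onto DNA in an inactive form, a step called licensing. In S phase the kinase Cdc7 with Dbf4, together with cyclin-dependent kinases, turns it into an active helicase bound to Cdc45 and the GINS complex. Mcm10 takes part in that activation and is not a subunit of the ring, and Mcm8 belongs to a separate complex with Mcm9 that works in recombination repair. Mcm genes are known targets of E2F transcription factors, and cycling cells hold more MCM protein than quiescent ones.

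Most member probe sets differed between the groups in the same direction, by the values given further on, and their promoter windows were read for the letters that E2F binds. RefSeq windows of 300 bases, from 250 before to 50 after the annotated start on GRCm38.p6, were matched for 7 of the 8 genes, with 2 starts for Mcm7. Mcm4 had no window and was not searched. The E2F search used TTTGGCGC, TTTCGCGC, TTTGCCGC and TTTCCCGC on both strands, and overlapping matches were counted separately. At least 1 of these octamers was present in 5 of the 8 member windows, those of Mcm3, Mcm5, Mcm6, Mcm8 and the upstream start of Mcm7, against 2.26% of 32851 windows of the same length. The CCAAT box, the letters CCAAT on either strand, was in 8 of the 8 member windows and in 37.4% of all windows. TTTGAA, the core of the CHR element of many mitotic promoters, was in 1 member window, that of Mcm2, and in 17.9% of all windows. A match describes letters and not a bound site, and a window without one says nothing about the factor.

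Shown are 4 of the windows, cut 30 bases past the start, with E2F octamers in capitals: those of Mcm5 and Mcm7, of which 2 of 3 and 4 of 4 probe sets passed under the spike-in batch described further on, that of Mcm6, which had the most matches, and that of Mcm10, the only member called under both batch covariates, in which no match was found.
Mcm5, chr8:75109259-75109538, plus strand: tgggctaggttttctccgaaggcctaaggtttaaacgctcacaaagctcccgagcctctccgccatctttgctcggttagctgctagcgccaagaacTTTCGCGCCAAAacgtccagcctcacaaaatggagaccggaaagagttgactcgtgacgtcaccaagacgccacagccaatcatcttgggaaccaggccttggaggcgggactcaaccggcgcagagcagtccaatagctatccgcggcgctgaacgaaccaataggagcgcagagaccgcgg
Mcm6, chr1:128359676-128359955, minus strand: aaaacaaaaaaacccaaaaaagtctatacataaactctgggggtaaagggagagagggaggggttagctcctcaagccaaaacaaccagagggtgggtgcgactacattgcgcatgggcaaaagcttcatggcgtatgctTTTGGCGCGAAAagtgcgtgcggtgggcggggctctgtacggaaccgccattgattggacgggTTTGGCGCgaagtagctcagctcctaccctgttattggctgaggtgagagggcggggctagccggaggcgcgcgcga
Mcm7, upstream start, chr5:138171854-138172133, minus strand: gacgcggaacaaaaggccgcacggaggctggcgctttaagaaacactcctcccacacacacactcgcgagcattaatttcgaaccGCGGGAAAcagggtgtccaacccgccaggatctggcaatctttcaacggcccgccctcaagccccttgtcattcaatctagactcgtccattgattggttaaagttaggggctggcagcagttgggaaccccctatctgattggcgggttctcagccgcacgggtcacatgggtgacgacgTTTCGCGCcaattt
Mcm10, chr2:5012762-5013041, minus strand: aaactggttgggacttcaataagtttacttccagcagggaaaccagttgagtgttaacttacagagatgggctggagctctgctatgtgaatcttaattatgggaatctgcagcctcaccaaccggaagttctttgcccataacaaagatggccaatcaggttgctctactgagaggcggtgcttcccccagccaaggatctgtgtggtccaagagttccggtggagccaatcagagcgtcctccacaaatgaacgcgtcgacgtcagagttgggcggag
In Mcm5 the run of capitals holds overlapping matches on both strands between 153 and 142 bases before the start. Mcm6 has the same arrangement between 110 and 99 bases before the start, and another match between 47 and 40 bases before it. Mcm7 has its matches 165 to 158 bases before the start and 17 to 24 bases after it. Beyond the part shown, the 300-base window of Mcm10 ends in TTTGGCG, the start of TTTGGCGC. A match across that edge would not be found.

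**Figure D1:**
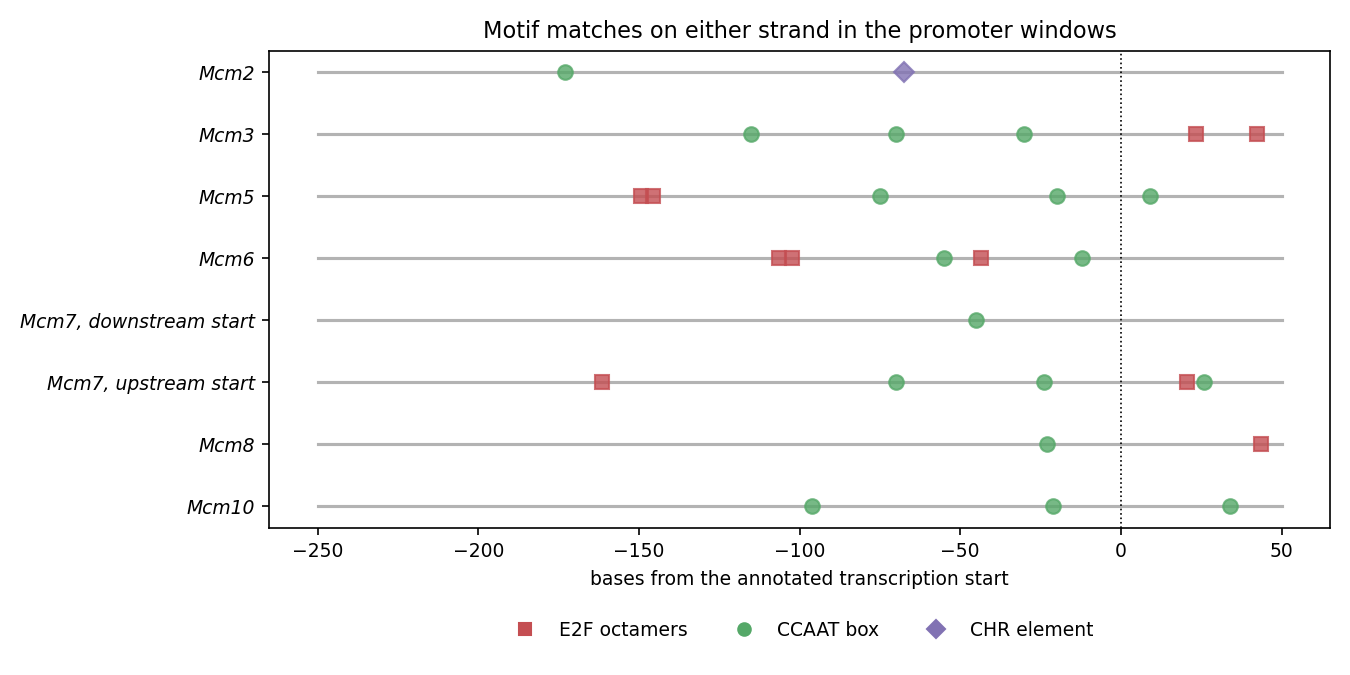
Motif matches in the 8 promoter windows of 7 MCM genes (Mcm4 had no window), drawn by distance in bases from the annotated start. Squares are E2F octamers, circles CCAAT boxes and the diamond a TTTGAA match, on either strand; E2F octamers occur in 5 windows and a CCAAT box in all 8.

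The labels and the spike-in controls disagree on how the arrays were labelled. By the labels, replicate 4 of each group was labelled under another revision of the kit protocol. RNA spike-ins of bacterial sequence, a control of the labelling, were instead missing on G1 replicate 4 and G0 replicate 3, with medians of −6.40 and −7.12, against −0.14 to 0.62 on the other 6 arrays. Results are therefore given with the labelled batch, with the batch read from the spike-ins, and without those 2 arrays.

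MCM transcripts were higher in cells sorted as G1 in 22 of the 23 probe sets, at a median log2 difference of 1.04, or 2.05-fold, but only 1 probe set passed the test. Over all probe sets 45% had a positive difference and the median was −0.06. Values are log2 relative to each probe set's own median over the 8 arrays, so differences between arrays are measured and levels are not, and the levels of the MCM genes cannot be ranked against each other. The median of the 23 probe sets was 0.51, 0.41, 0.30 and 0.66 on G1 replicates 1 to 4, against −0.59, −0.84, −0.28 and −0.49 on G0 replicates 1 to 4. The groups were apart on this median, while the array medians over all probe sets ran only from −0.07 to 0.09. In RNA of sorted populations, a larger share of cells with a transcript and more transcript per cell cannot be told apart.

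Past an adjusted p of 0.05 (limma, with the labelling batch as covariate, adjusted over all 45037 probe sets) was 1 of the 23, a probe set of Mcm10. Of all probe sets, 0.373% were called higher in G1. At an unadjusted p under 0.05, 17 of the 23 were higher and 0 lower, against 3.71% of all probe sets higher. In 17 of the 23 the 4 G1 values lay wholly above the 4 G0 values, which 3.16% of all probe sets did. Each of the 8 genes had at least 1 such probe set, but genes with more probe sets have more chances of one. The share of all genes with at least 1 was not counted. By the 1 probe set that stands for each gene, chosen without regard to outcome, 0 of the 8 genes passed in limma (0.5% of all genes were called higher), and 6 had an unadjusted p under 0.05 with G1 higher, against 4.33% of all genes. In 5 of the 8 the groups did not overlap, against 3.79% of all genes. The mean of all probe sets of each gene also gave 0 of 8 (0.555% of all genes).

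Treating the arrays without spike-ins as the batch in place of the labelled one, 7 of the 23 probe sets passed, all higher in G1, where 0.702% of all probe sets did so. They were the 4 of Mcm7, 2 of the 3 of Mcm5 and the same 1 of Mcm10. On the 6 arrays with spike-ins alone, 0 of the 23 passed in limma (0.091% of all probe sets were called higher), while 19 had an unadjusted p under 0.05 with G1 higher, against 3.96% of all. On those 6 arrays the groups did not overlap, with G1 higher, in 22 of the 23, against 6.69% of all probe sets. Each batch takes 1 array from either group, so the 8-array differences do not depend on which is fitted and only their errors do.

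**Figure D2:**
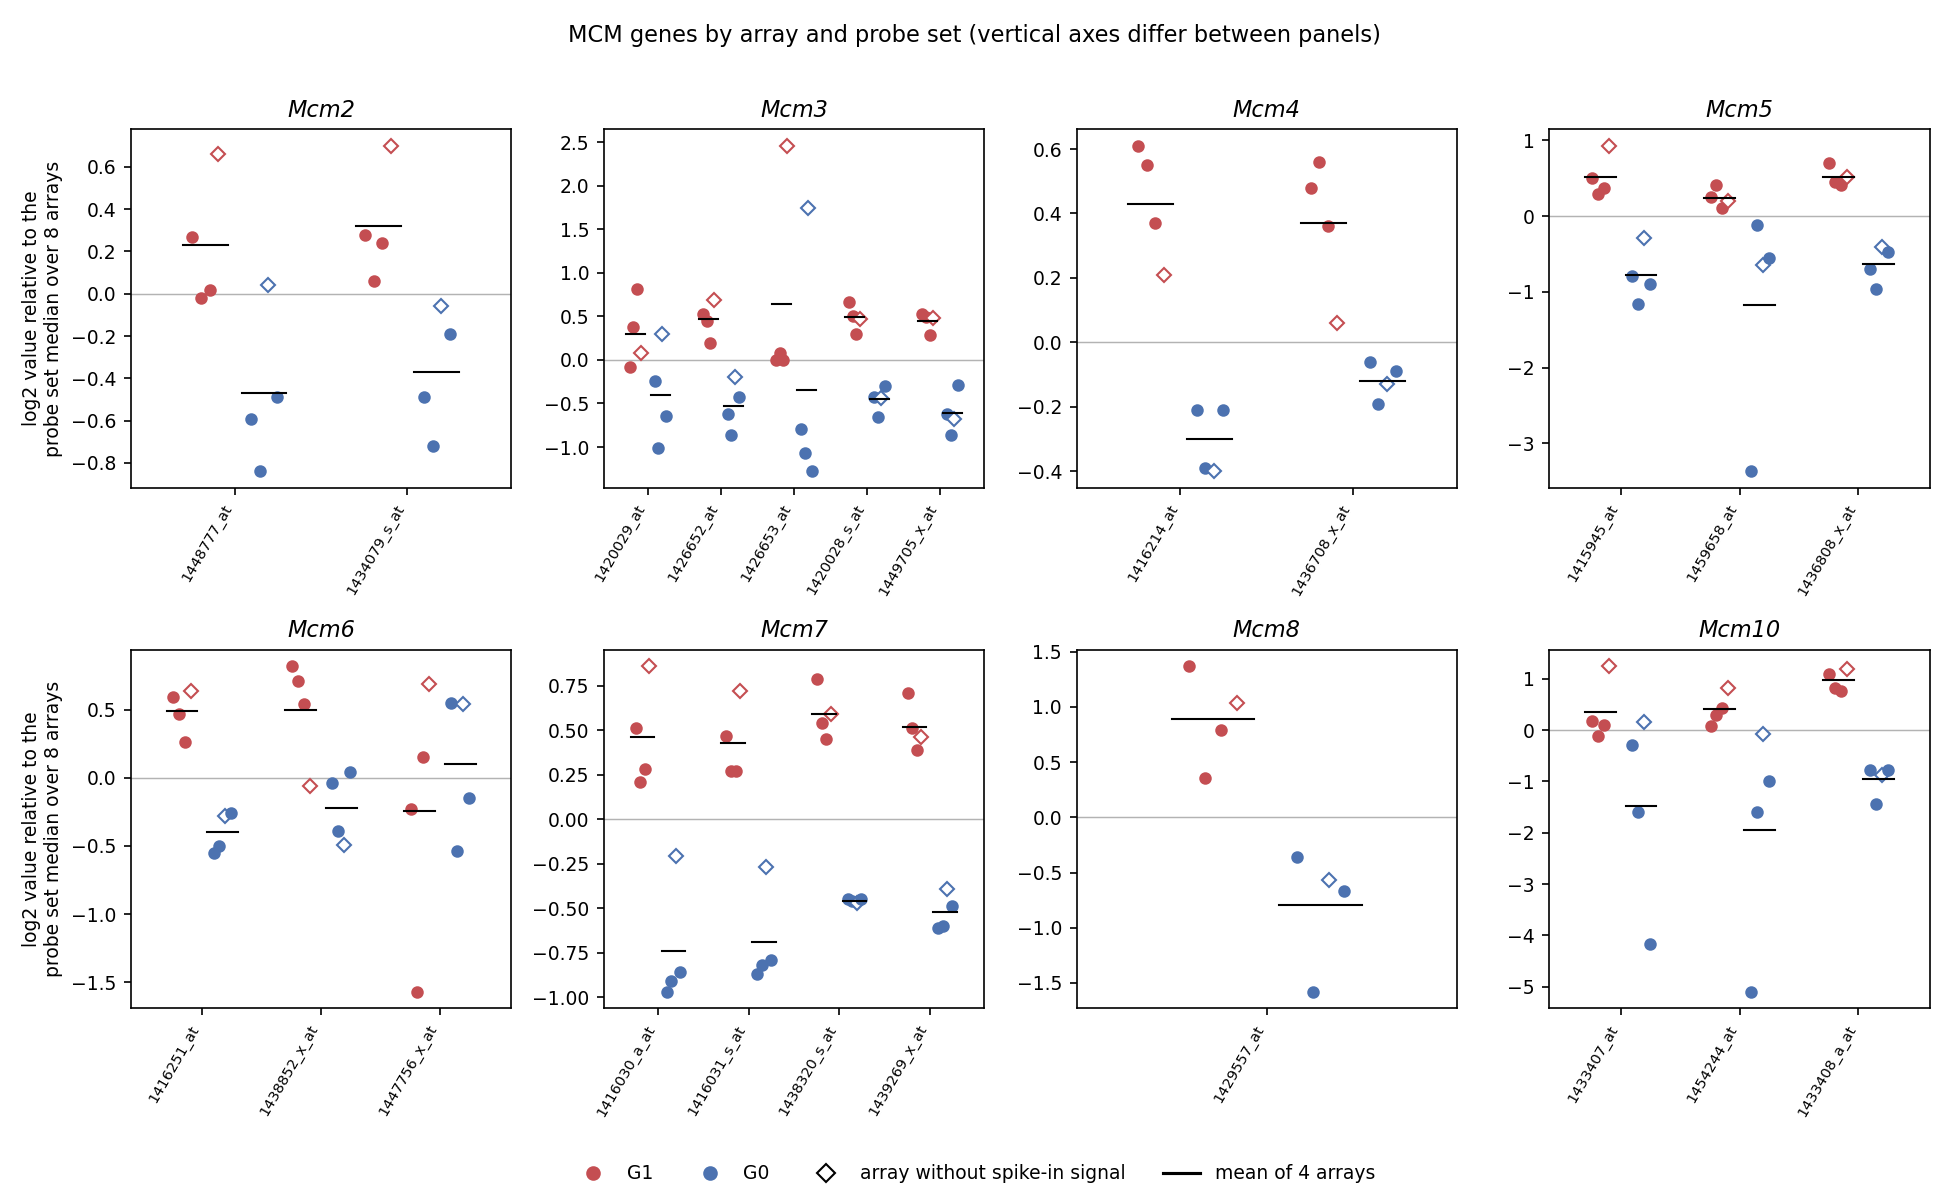
Log2 value of every MCM probe set on every array, relative to its median over the 8 arrays; vertical axes differ between panels. Red points are the 4 G1 arrays and blue points the 4 G0 arrays, open diamonds mark the 2 arrays without spike-in signal, and bars are group means; the groups do not overlap in 17 of the 23 probe sets.

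Mcm10, which helps to turn the loaded helicase into a moving one, had the only probe set past the threshold. Probe set 1433408_a_at read 1.10, 0.82, 0.77 and 1.19 on G1 replicates 1 to 4, against −0.77, −1.43, −0.88 and −0.77 on G0 replicates 1 to 4. The lowest G1 array was 1.53 above the highest G0 array, the widest gap among the 23. The rise was 3.81-fold (log2 difference 1.93, SE 0.23, 95% confidence interval 1.40 to 2.47, limma adjusted p = 0.0225, n = 4 arrays a group). The spike-in batch gave a call too (adjusted p = 0.0127), but not without the 2 arrays (1.89, adjusted p = 0.0911). The call was also lost when any array other than G0 replicate 3 was left out, with adjusted p from 0.0621 to 0.21, while the difference stayed between 1.79 and 2.02.

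The other probe sets of Mcm10 scattered too widely to be read by themselves. 1454244_at read 0.08, 0.29, 0.43 and 0.82 on the G1 arrays, against −5.10, −1.60, −0.08 and −1.0 on the G0 arrays (log2 difference 2.35, 95% confidence interval −0.47 to 5.18, limma adjusted p = 0.763). 1433407_at had 0.18, −0.11, 0.11 and 1.25 in G1, against −0.29, −1.59, 0.16 and −4.17 in G0 (1.83, interval −0.40 to 4.06, adjusted p = 0.769). Without replicate 4 of either group the difference of 1433407_at, Mcm10's representative, was 0.63. Both differences were positive, and each probe set had 1 G0 array far below the rest, replicate 1 in the first and replicate 4 in the second. A signal floor cannot be recognised from single values in these centred data, so those sizes are uncertain.

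Mcm7, a subunit of the hexamer, was measured by 4 probe sets with nearly equal differences, from 1.04 to 1.20. Its most even probe set, 1438320_s_at, read 0.79, 0.54, 0.45 and 0.59 on G1 replicates 1 to 4, against −0.45, −0.46, −0.47 and −0.45 on G0 replicates 1 to 4. The G0 arrays lay within an SD of 0.01, and all G1 arrays were above them. The log2 difference was 1.05, or 2.07-fold (SE 0.18, interval 0.63 to 1.47, limma adjusted p = 0.097). All 4 probe sets passed under the spike-in batch, with adjusted p from 0.0224 to 0.0365, and 0 passed without the 2 arrays, where adjusted p ran from 0.149 to 0.269.

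The probe sets of Mcm7 did not vary alike within a group. 1416030_a_at read 0.51, 0.21, 0.28 and 0.86 in G1, against −0.97, −0.91, −0.21 and −0.86 in G0. Here G1 replicate 4 was 0.53 above the mean of the other G1 arrays and G0 replicate 3 was 0.70 above that of the other G0 arrays. For 1438320_s_at those offsets were −0.0049 and −0.02. The difference between the groups was 1.20 in 1416030_a_at, with an SE of 0.29 under the labelled batch and 0.17 under the spike-in batch, and 1.24 without the 2 arrays.

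Mcm5, another subunit of the ring, differed by 1.30, or 2.47-fold, in 1415945_at (SE 0.29, interval 0.63 to 1.98, limma adjusted p = 0.22). Its values were 0.51, 0.29, 0.37 and 0.93 on the G1 arrays, against −0.79, −1.16, −0.29 and −0.89 on the G0 arrays. The groups did not overlap. 1436808_x_at gave 1.15 (interval 0.63 to 1.67, adjusted p = 0.138), and these 2 probe sets passed in limma under the spike-in batch (adjusted p = 0.029 and 0.0497). In the third, 1459658_at, G0 replicate 1 stood at −3.37 and the other G0 arrays between −0.64 and −0.11, so its difference of 1.41 has an interval from −0.37 to 3.19.

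Mcm6 was positive in 2 of its 3 probe sets and gave the only negative difference among the 23. 1416251_at read 0.59, 0.47, 0.26 and 0.64 in G1, against −0.55, −0.50, −0.28 and −0.26 in G0, a 1.85-fold difference (log2 0.89, SE 0.19, interval 0.45 to 1.33, limma adjusted p = 0.196). The groups did not overlap there. 1438852_x_at differed by 0.72 (adjusted p = 0.619). There G1 replicate 4 read −0.06, below G0 replicate 4 at 0.04, and the other G1 arrays lay between 0.54 and 0.82. 1447756_x_at differed by −0.34 (interval −1.55 to 0.86, adjusted p = 0.955), with G1 arrays from −1.57 to 0.69 and G0 arrays from −0.54 to 0.55. It correlated with the other Mcm6 probe sets at r = −0.20 and −0.49 over the 8 arrays. The _x_at suffix marks probes that may cross-hybridise. 1438852_x_at carries it too, as do 1449705_x_at of Mcm3, 1436708_x_at of Mcm4, 1436808_x_at of Mcm5 and 1439269_x_at of Mcm7. Those of Mcm5 and Mcm7 are among the calls under the spike-in batch. Whether cross-hybridisation bears on any of these probe sets was not tested.

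Mcm3 differed by 0.70 to 1.06 over its 5 probe sets, and none passed. 1420028_s_at read 0.66, 0.51, 0.30 and 0.47 in G1, against −0.42, −0.65, −0.44 and −0.30 in G0 (log2 difference 0.94, or 1.92-fold, SE 0.19, limma adjusted p = 0.182). Its groups were apart by 0.60. 1449705_x_at gave nearly the same values (r = 0.99 over the 8 arrays) and a difference of 1.06 (adjusted p = 0.162), and 1426652_at one of 0.99 (adjusted p = 0.255). In 1420029_at, the probe set that stands for the gene, the groups overlapped (0.70, interval −0.12 to 1.51, adjusted p = 0.758).

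The fifth Mcm3 probe set, 1426653_at, was set apart by the 2 arrays without spike-ins. It read 0.00, 0.08, −0.00 and 2.46 on G1 replicates 1 to 4, against −0.79, −1.07, 1.75 and −1.28 on G0 replicates 1 to 4. G1 replicate 4 and G0 replicate 3 were thus the highest arrays of their groups, by 2.43 and 2.79 over the mean of the others. With the labelled batch as covariate its difference of 0.98 had an SE of 0.84 (limma adjusted p = 0.89), whereas the spike-in batch gave an SE of 0.16 (adjusted p = 0.0566). The difference was 1.07 on the 6 arrays with spike-ins and 0.72 between the 2 arrays without.

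In Mcm4 and Mcm2, also subunits of the ring, the differences of all 4 probe sets lay between 0.48 and 0.74. For Mcm4, 1416214_at read 0.61, 0.55, 0.37 and 0.21 in G1, against −0.21, −0.39, −0.40 and −0.21 in G0, and the groups did not overlap (log2 difference 0.74, or 1.67-fold, SE 0.19, limma adjusted p = 0.349). 1436708_x_at gave 0.48 (interval 0.04 to 0.93, adjusted p = 0.646). For Mcm2, 1448777_at read 0.27, −0.02, 0.02 and 0.66 in G1, against −0.59, −0.84, 0.04 and −0.49 in G0. Only G0 replicate 3 reached into the range of the G1 arrays (0.70, SE 0.28, adjusted p = 0.665). In 1434079_s_at, where the groups were apart by 0.13, the difference was 0.69 (SE 0.23, adjusted p = 0.531).

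Mcm8, of the repair complex, had a single probe set, with a larger measured difference than the representatives of the 6 hexamer genes. 1429557_at read 1.37, 0.36, 0.79 and 1.04 in G1, against −0.36, −1.58, −0.57 and −0.67 in G0, with no overlap. The difference was 1.68, or 3.21-fold (SE 0.35, interval 0.87 to 2.50, limma adjusted p = 0.183). It was 1.71 on the 6 arrays with spike-ins and 1.61 between the other 2.

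**Figure D3:**
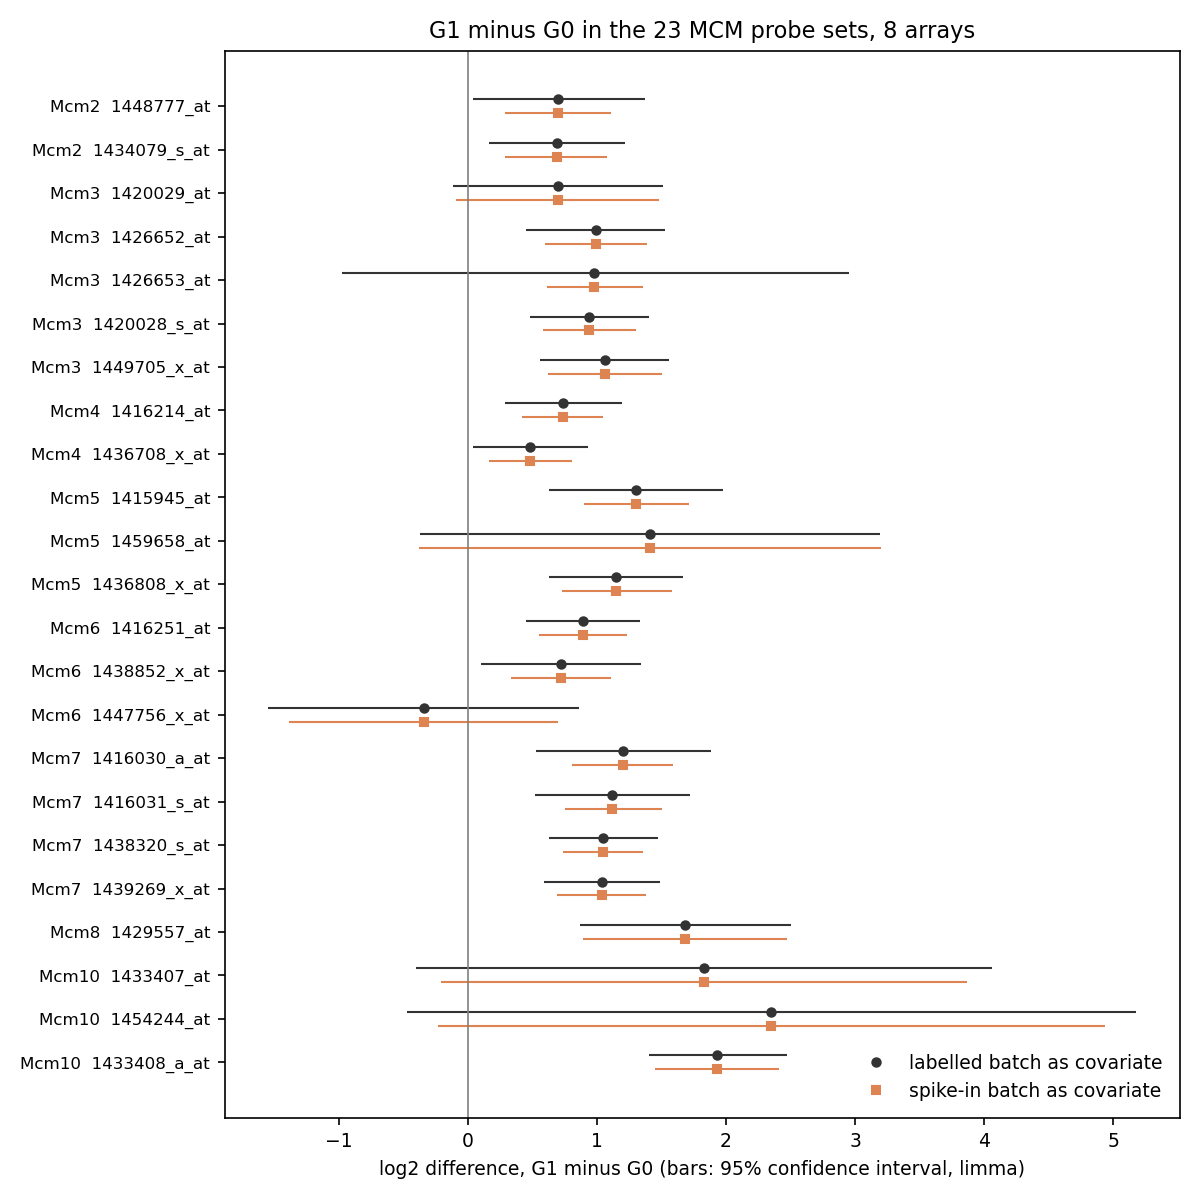
Log2 difference, G1 minus G0, of each MCM probe set with its 95% confidence interval from limma, with the labelled batch (dark circles) or the spike-in batch (orange squares) as covariate. All but 1447756_x_at of Mcm6 lie right of 0; the widest intervals are those of Mcm10 1454244_at and 1433407_at, and that of Mcm3 1426653_at narrows most with the spike-in batch.

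Whether the genes differed from each other in the size of their change was tested on 28 pairs of representatives by an exact permutation test of the difference over the 8 arrays, two-sided, whose smallest possible p is 0.0286. At that p, unadjusted, Mcm2 differed by less than Mcm5 (by 0.60), Mcm7 (by 0.50) and Mcm8 (by 0.98). After Benjamini-Hochberg adjustment over the pairs 0 of 28 passed, with a lowest adjusted p of 0.267 in this exact permutation test. Among 27 pairs of probe sets of the same gene, the 2 of Mcm4 reached the smallest p (a difference of 0.25), and 0 passed after adjustment, with a lowest adjusted p of 0.771 in the exact permutation test. A single pair at the smallest possible p cannot pass this adjustment, which needs many pairs at that p together. The counts of 0 therefore do not show that the changes were equal. The order of sizes among the 8 genes is not settled by these arrays.

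Over the 23 probe sets, the offset of G1 replicate 4 from the other G1 arrays and that of G0 replicate 3 from the other G0 arrays went together (r = 0.77, and 0.61 without 1426653_at). Over all 45037 probe sets r was 0.31. Each pair of offsets comes from the same 2 arrays, and probe sets of the same gene are not independent. The median offset was 0.20 for G1 replicate 4 and 0.40 for G0 replicate 3 in the MCM probe sets, against 0.22 and 0.15 over all probe sets.

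**Figure D4:**
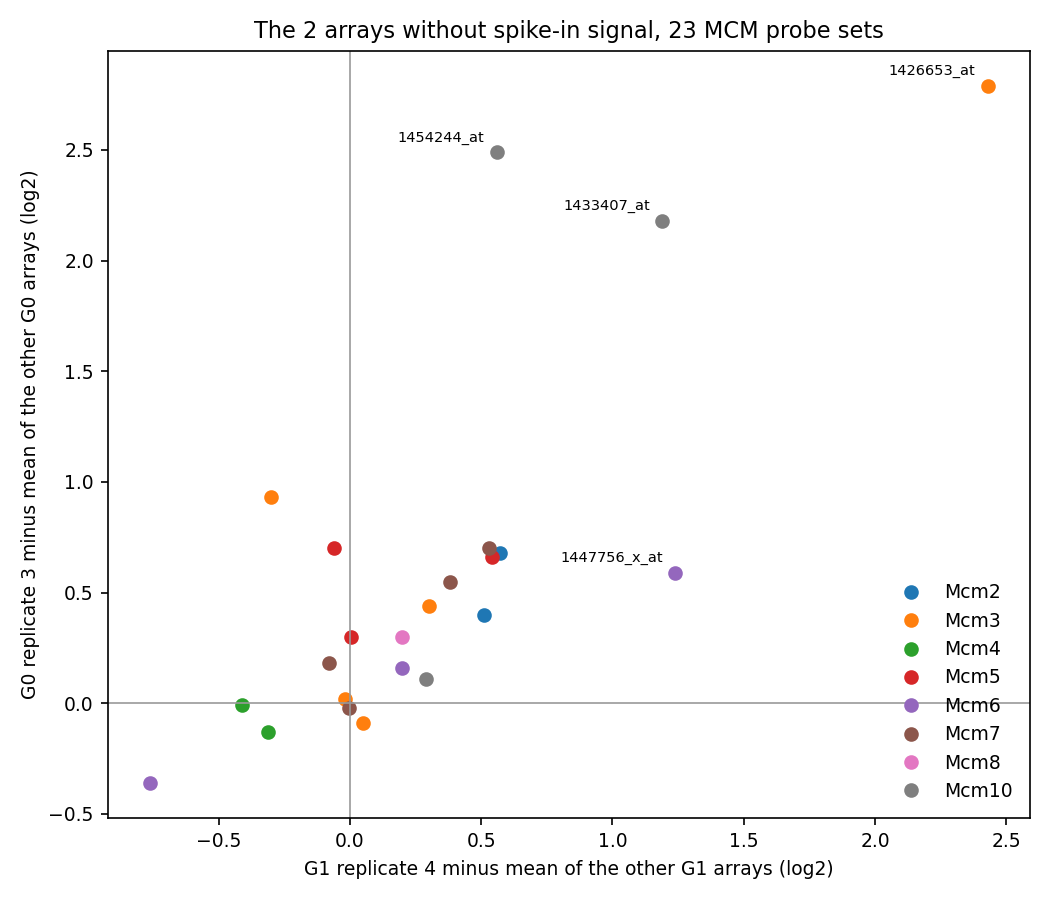
Each point is an MCM probe set: horizontally G1 replicate 4 minus the mean of the other G1 arrays, vertically G0 replicate 3 minus the mean of the other G0 arrays, both in log2 units and coloured by gene. Mcm3 1426653_at stands highest on both (2.43 and 2.79), while Mcm7 1438320_s_at lies close to 0 on both.

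The wider licensing pathway was read from lists of genes, each gene by its representative probe set. Of 9 genes for origin recognition and MCM loading, 1 rose (0.5% of all genes were called higher), and the other 8 were not past the threshold. The median was 0.44, and 8 of the 9 differences were above 0. At an unadjusted p under 0.05 in limma, 3 were higher (4.33% of all genes), and in 5 the groups did not overlap, with G1 higher (3.79%). Under the spike-in batch 2 passed (0.929% of all genes), and without the 2 arrays 0 did (0.165%). The gene that rose was Gmnn, which encodes geminin, an inhibitor of Cdt1 that blocks relicensing after S phase begins. It read 0.82, 0.60, 0.75 and 1.02 in G1, against −0.96, −1.06, −0.61 and −0.60 in G0 (3.05-fold, log2 difference 1.61, SE 0.20, limma adjusted p = 0.0268). Without the 2 arrays Gmnn did not pass (adjusted p = 0.0874). Leaving out G0 replicate 1 left 46 of all probe sets past the threshold, leaving out G0 replicate 3 left 122, and leaving out any of the other 6 arrays left 0, so Gmnn and every other called gene named here lost its call in those 6 fits.

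No gene that loads the hexamer passed with the labelled batch. Cdc6, the loading ATPase, differed by 1.27 (SE 0.23, limma adjusted p = 0.12). Its limma adjusted p was 0.0486 with the spike-in batch and 0.259 without the 2 arrays. Cdt1, which brings the hexamer to origins, differed by 0.39 (adjusted p = 0.769); a fragment of human Cdt1 was also a sorting reporter. Orc6 differed by 0.88 (adjusted p = 0.37) and Orc1 by 0.46 (adjusted p = 0.719), while Orc2, Orc3, Orc4 and Orc5 had differences of 0.44, 0.10, −0.26 and 0.14.

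The differences of all 16 genes of helicase activation and of the active helicase were above 0. Their median was 1.11, beside 1.04 for the 8 MCM representatives and −0.06 over all genes. In limma 0 passed, and 15 had an unadjusted p under 0.05 with G1 higher (4.33% of all genes did). Under the spike-in batch 6 passed (0.929% of all genes were called higher), and without the 2 arrays 0 did (0.165% of all genes). Cdc45, which joins the hexamer in the active helicase, read 0.94, 0.68, 0.76 and 1.15 in G1, against −0.68, −1.92, −0.75 and −1.28 in G0 (2.04, SE 0.34, adjusted p = 0.0871). The GINS subunit genes Gins1, Gins2, Gins3 and Gins4 differed by 1.73, 1.03, 1.29 and 0.97, with limma adjusted p of 0.0517, 0.222, 0.0647 and 0.221. Dbf4, the activator of the Cdc7 kinase, differed by 1.30 (adjusted p = 0.11) and Cdc7 by 1.09 (adjusted p = 0.409).

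Relatives of the MCM genes outside the 8 did not pass with the labelled batch. Hrob, which encodes a binding partner of the Mcm8 and Mcm9 complex, differed by 1.73 (SE 0.28, limma adjusted p = 0.0779), close to Mcm8 at 1.68. Its limma adjusted p was 0.0411 with the spike-in batch and 0.211 without the 2 arrays. Mcm9 itself had 4 probe sets with differences of −1.01, 0.14, 0.03 and 0.54, and its intervals were wide in the first 2 (−3.31 to 1.29 and −2.87 to 3.16). Its most even probe set, 1455117_at, read 0.29, 0.30, 0.59 and −0.02 in G1, against −0.11, −0.63, −0.29 and 0.02 in G0 (adjusted p = 0.708). Mcmbp, which binds the hexamer off DNA, differed by 0.44 in its representative (adjusted p = 0.687) and by −0.12 and 0.04 in its other probe sets.

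**Figure D5:**
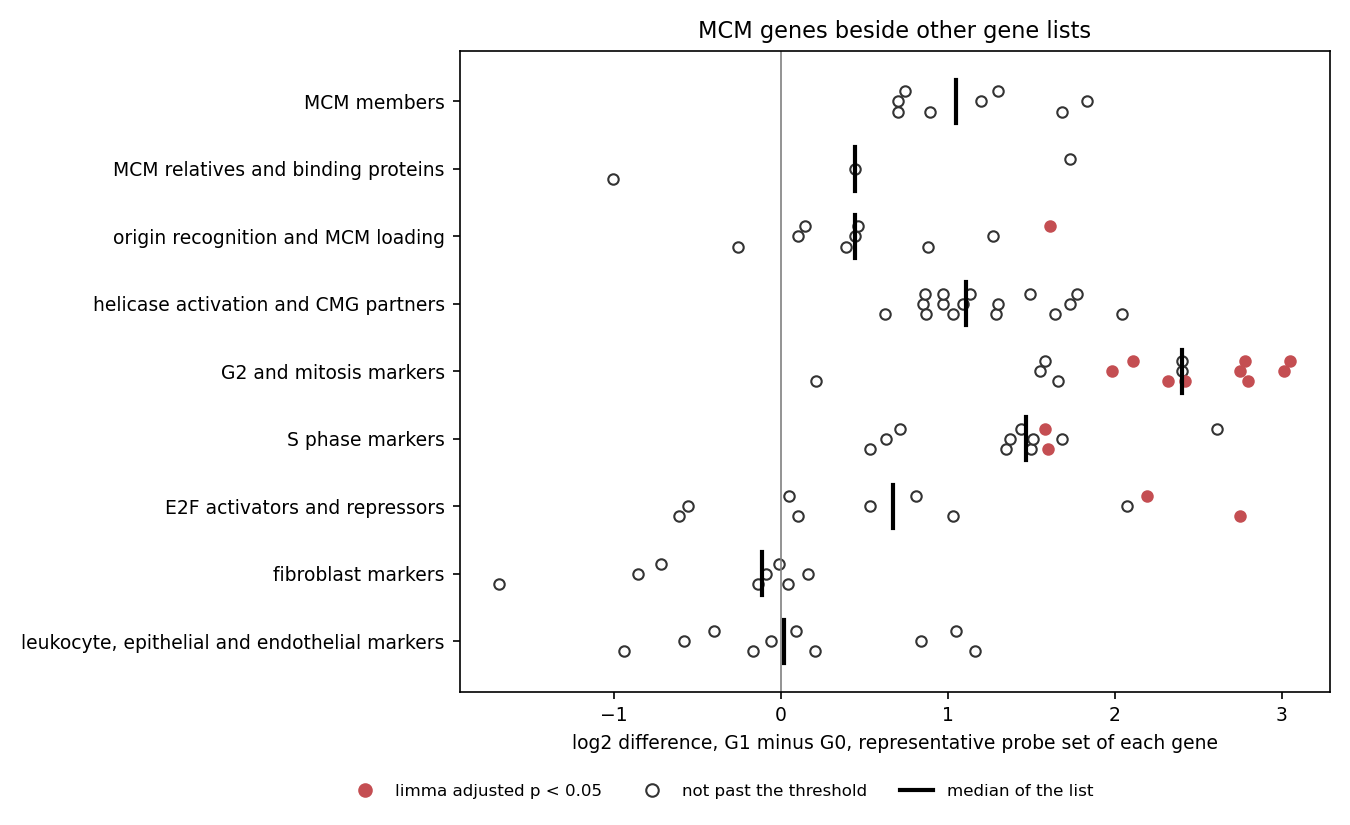
Log2 difference, G1 minus G0, of the representative probe set of each gene, by list; filled red points passed limma's adjusted threshold of 0.05, open points did not, and thick bars are list medians. The MCM representatives lie between 0.70 and 1.83, beside the helicase activation genes (median 1.11) and below the G2 and mitosis markers (median 2.40).

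Among markers of cells past G1, 9 of 15 measured G2 and mitosis markers rose, 6 did not pass and 0 fell, with a median of 2.40 (0.5% of all genes were called higher). Among them Plk1 rose by 2.80 (limma adjusted p = 0.00889) and Bub1 by 3.05 (adjusted p = 0.00999), both mitotic kinases. The list's median on each array ran from 0.88 to 1.54 in G1, against −1.37 to −0.93 in G0. Of 12 S phase markers 2 rose, the primase subunit gene Prim1 (1.60, adjusted p = 0.031) and the polymerase subunit gene Pola1 (1.58, adjusted p = 0.0483), with a list median of 1.47 and array medians from 0.56 to 0.70 in G1, against −0.76 to −0.51 in G0. Under the spike-in batch 12 of the G2 and mitosis markers and 8 of the S phase markers passed (0.929% of all genes were called higher), and without the 2 arrays 6 and 0 did so in limma (0.165% of all genes). How many cells of later stages the G1 gate held cannot be read from these values, and their part in the MCM differences was not tested. Among 10 E2F and DP genes 2 rose, the repressors E2f8 (2.75, adjusted p = 0.00999) and E2f7 (2.19, adjusted p = 0.03), and the median was 0.67. At an unadjusted p under 0.05 in limma, 6 of the 10 were higher (4.33% of all genes), and in 5 the groups did not overlap, with G1 higher (3.79%). E2f1, E2f2 and E2f3 differed by 0.81, 2.07 and 0.10 (limma adjusted p = 0.669, 0.43 and 0.984). Only E2f8 and E2f7 passed under the spike-in batch, and without the 2 arrays E2f8 passed and E2f7 did not (adjusted p = 0.0752).

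Fibroblast markers gave no call in limma (0 of 8 passed, 0 higher and 1 lower at an unadjusted p under 0.05, median −0.12), with array medians from −0.22 to 0.08 in G1, against −0.08 to 0.22 in G0. Col1a1 and Col1a2, the collagen I chains, differed by −0.86 (adjusted p = 0.916) and −0.14 (adjusted p = 0.946). Of 10 markers of leukocytes, epithelium and endothelium 0 passed, 1 had an unadjusted p under 0.05 with G1 higher, and the median was 0.02, with array medians from −0.18 to 0.07 in G1, against −0.88 to 0.37 in G0. Ptprc differed by 1.05 (adjusted p = 0.846) and Cd68 by 0.09 (adjusted p = 0.977). Since levels were removed by centring, neither the presence of fibroblast markers nor the absence of the others could be checked.

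The genes most like the hexamer were ranked by Pearson correlation over the 8 arrays with the mean of the representatives of Mcm2 to Mcm7. That mean was 0.40, 0.31, 0.35 and 0.56 on G1 replicates 1 to 4, against −0.56, −0.80, −0.14 and −0.56 on G0 replicates 1 to 4. The 6 genes outside the members with the highest values were Dsn1 (r = 0.994), which encodes a kinetochore protein, Rfc2 (0.993), of the clamp loader, Racgap1 (0.990), of the central spindle, Chaf1b (0.988), of a histone chaperone, the kinase gene Melk (0.987) and Cenpn (0.986), of the centromere. Rfc2 read 0.33, 0.21, 0.26 and 0.55 in G1, against −0.51, −0.76, −0.21 and −0.42 in G0, close to the hexamer mean in size as well as shape. Melk moved the same way over a wider range, from 0.93 to 2.17 in G1, against −2.66 to −0.93 in G0, a rise of 3.21 (limma adjusted p = 0.0406). Mcm8 reached r = 0.929 and Mcm10's representative 0.698. The ring genes, themselves part of the mean, ran from 0.766 (Mcm3) and 0.837 (Mcm4) over 0.933 (Mcm2), 0.950 (Mcm6) and 0.979 (Mcm7) to 0.993 (Mcm5). Mcm10's called probe set 1433408_a_at was not ranked. Its r with the representatives of Mcm2 to Mcm7, in that order, was 0.84, 0.65, 0.93, 0.95, 0.97 and 0.92. With 8 arrays in 2 groups, r mostly follows the difference between the groups, and arrays of the same batch are shared by all genes.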

How the data were processed

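RNA of NIH3T3 cells was measured on 8 Affymetrix arrays, grouped by the titles as 4 G1 and 4 G0. The authors deposited 1 value for each probe set on each array, read here as log2 expression. The expression software was MAS5, per the submitters' processing notes. Every probe set's median over the 8 arrays was 0 to within 5.0e-07, so the values had been centred. The base was taken as 2 from their range (−12.4 to 5.58), and the log and centring steps are not given in the sources used here. No level filter, floor or further scaling could be applied, and the number of arrays limits the precision.

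The 64 control probe sets were left out. Differences, G1 minus G0, came from limma 3.58.1 (R 4.3.3), by lmFit and a two-sided eBayes with trend, with the labelled batch as covariate and Benjamini-Hochberg adjustment over 45037 probe sets. The fit was run on simulated data with independent noise and no batch effect. That run checked the mean size of the estimates and not the batches of these arrays. A gene's representative was chosen by suffix (_at, _a_at, _s_at, _x_at) and then by lowest number. Pairs were compared by exact permutation with Python 3.11.15. Named genes were all members, the called or described genes of the pathway lists, up to 4 called genes (or the first 2) of other lists, and the 6 most correlated genes. E2f1, E2f2 and E2f3 were named besides, though not called. The members and lists were chosen with earlier results of these data known. Nothing says that replicates were separate cultures, so p-values reflect only how far these samples differ, which can be technical. Same-numbered arrays did not deviate together (r from −0.14 to 0.11), and the main fit used no pairs. G1 replicate 4 and G0 replicate 3, the arrays without spike-ins, gave r = 0.309, and G1 replicate 3 with G0 replicate 4 gave 0.100. The other pairs of unlike number ran from −0.136 to 0.038. If the numbers of G0 replicates 3 and 4 were exchanged, this check by label would not find a pairing. Pairs with those numbers exchanged were not fitted. Symbols were updated through Entrez identifiers with the GRCm38.p6 gene table, matched for 34741 of 34945 probe sets with 1 symbol. Mcmdc2 and Ccnb1 had no representative.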

Additional observations from a re-analysis of the deposited data

Results flagged for a closer look

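Among 46 groups of 4 arrays (23 probe sets in G1 and in G0), 6 had an array far from the others by Dixon's test, past its 95% critical value, which chance flags in about 1 of 20 groups. In Mcm3 1426653_at, G1 replicate 4 read 2.46 and the other G1 arrays −0.00 to 0.08. In the same probe set G0 replicate 3 read 1.75 and the other G0 arrays −1.28 to −0.79. In Mcm7, G0 replicate 3 read −0.21 in 1416030_a_at, with the others from −0.97 to −0.86, and −0.27 in 1416031_s_at, with the others from −0.87 to −0.79. These 4 flags fall on the 2 arrays without spike-in signal. In Mcm5 1459658_at, G0 replicate 1 read −3.37 and the others −0.64 to −0.11. In Mcm10 1433408_a_at, G0 replicate 2 read −1.43 and the others −0.88 to −0.77. Without G0 replicate 2 the difference of that probe set was 1.79 (limma adjusted p = 0.0941).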

How the results depend on the processing

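The direction of the MCM median did not change under any alternative run, and it lay between 0.86 and 1.43. The highest value came from labelled batch 2, which holds 1 array a group and gives no test. Counts of calls did change. Of the 23 MCM probe sets 1 passed as reported, 7 with the spike-in batch as covariate, 3 with no batch covariate, and 0 on the 6 arrays with spike-ins, in labelling batch 1 alone or with the replicate number as a block (limma). The replicate block joins arrays by their labelled numbers, so it does not join the 2 arrays without spike-ins. With that block 14 had an unadjusted p under 0.05 with G1 higher (1636 of all probe sets), and 0 of all probe sets passed. Of the 8 genes 0 passed, and 2 with the spike-in batch (Mcm5 and Mcm7, adjusted p = 0.029 and 0.0341). Over all probe sets 180 passed as reported, 355 with the spike-in batch, 269 with no batch covariate, 44 on the 6 arrays and 0 in labelling batch 1 (1470 higher unadjusted, 15 of them MCM probe sets). Leaving out 1 array at a time gave 0 to 1 MCM probe sets (14 to 18 higher unadjusted) and 0 to 122 of all probe sets (1450 to 2184 higher unadjusted). The 1 MCM probe set passed only without G0 replicate 3; with any other array left out the count was 0. Leaving out a replicate 4 leaves its batch with 1 array, which then adds nothing to the difference. Centring each array on its median gave 1 MCM probe set and 213 of all. Within labelled batch 2 the representatives of Mcm10, Mcm5, Mcm7, Mcm2 and Mcm4 differed by 5.42, 1.82, 1.72, 1.15 and 0.41, and within the batch without spike-ins that of Mcm3 by −0.22. The cause was not tested.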

Other observations

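Ap4m1, which encodes a subunit of an adaptor complex of vesicle traffic, was the only gene with a RefSeq start on the opposite strand within 1000 bases of a member's start, among the 7 genes with a promoter window. Neighbours of Mcm4 were not searched. Ap4m1 starts head to head with Mcm7, 138 bases from the upstream start of Mcm7. Its only probe set read −0.03, −0.33, 0.21 and 0.03 in G1, against 0.25, −0.19, 0.03 and −0.04 in G0. The difference was −0.04 (95% confidence interval −0.56 to 0.47, limma adjusted p = 0.99), against 1.04 to 1.20 in the 4 probe sets of Mcm7. The difference between the genes was not tested, and the neighbour was chosen by position.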
